A study of Homo sapiens with 12 samples.

Results

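The globin genes encode the chains of haemoglobin, and 10 of them lie in 2 clusters. In the gene order of the RefSeq table for GRCh38.p14, the beta cluster on chromosome 11 runs HBB, HBD, HBG1, HBG2, HBE1, and the alpha cluster on chromosome 16 runs HBZ, HBM, HBA2, HBA1, HBQ1. Every probe set whose platform symbol named 1 of these genes was taken, which gave 19 probe sets for 10 of 10 genes, among 54613 probe sets tested and 19775 genes represented by a probe set of their own. The family was selected on measured values, namely the sponge changes of HBB, HBD, HBE1 and HBZ on these arrays. Those changes are therefore given as a description, without p. Counts of calls for the sponge comparisons include these genes, so their calls rest on values known beforehand and nothing is read from them. The other globins share the same arrays and contrasts, and their adjusted p is printed as part of the description of the family.

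Haemoglobin is built from alpha-like and beta-like chains around heme, and red cell precursors switch which genes they use during development. In the beta cluster the embryonic gene HBE1 gives way to the fetal genes HBG1 and HBG2 and then to the adult genes HBB and HBD, while in the alpha cluster the embryonic gene HBZ gives way to HBA1 and HBA2. Plasma cells, the cell of origin of multiple myeloma, are known for antibody secretion and not for globin synthesis.

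Transcripts were measured on 12 Affymetrix arrays of human cells in 4 groups of 3: MMS1 with a miR-16 sponge, MMS1 with a control sponge, RPMI8226 with a miR-16 sponge and RPMI8226 with a control sponge. Both lines are labelled multiple myeloma, and RPMI8226 appears in some labels as RPMI or RPMI826. The cells of all 4 groups carried a GFP lentivirus with either binding sites for miR-16 or a mock sponge, and had been sorted by flow cytometry and expanded, so each group is a transduced and selected population. Some labels call the miR-16 sponge groups miR16 KO, miR16 siRNA or knock down, though the protocol names a sponge, and the study set out to mimic the loss of this microRNA that comes with deletion of 13q in myeloma. A sponge is a transcript with repeated binding sites that holds a microRNA away from its targets, and the arrays do not measure the mature microRNA itself.

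The microRNA that the sponge addresses is shown because it defines the treatment. Its seed, bases 2 to 8, is in capitals, and RefSeq lists the same mature sequence for MIR16-1 at chr13:50049027-50049048 on the minus strand and MIR16-2 at chr3:160404754-160404775 on the plus strand (GRCh38.p14). For 2 of the 10 globins a promoter of 300 bases, 250 before and 50 after the gene start, was at hand from RefSeq. HBD at chr11:5234434-5234733 on the minus strand is shown as a gene whose signal was higher with the miR-16 sponge in both lines, and HBM at chr16:165728-166027 on the plus strand as one whose signal stayed low. Both are written along the gene's strand, and capitals mark matches to 5 short motifs searched on both strands.
hsa-miR-16-5p: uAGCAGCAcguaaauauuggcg
HBD promoter: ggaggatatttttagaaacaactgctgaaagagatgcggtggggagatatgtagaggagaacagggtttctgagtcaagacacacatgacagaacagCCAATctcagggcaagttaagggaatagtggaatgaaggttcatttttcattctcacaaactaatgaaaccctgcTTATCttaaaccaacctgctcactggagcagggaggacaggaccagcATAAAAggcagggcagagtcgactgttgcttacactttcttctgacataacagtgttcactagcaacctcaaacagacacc
HBM promoter: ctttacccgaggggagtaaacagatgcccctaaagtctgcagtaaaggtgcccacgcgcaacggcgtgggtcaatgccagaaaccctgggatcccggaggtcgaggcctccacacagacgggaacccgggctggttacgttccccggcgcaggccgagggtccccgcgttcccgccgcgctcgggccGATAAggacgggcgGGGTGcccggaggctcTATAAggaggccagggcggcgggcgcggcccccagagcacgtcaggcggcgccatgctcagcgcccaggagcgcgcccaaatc
Counted from the gene start, the HBD window held CCAAT at -153 to -149, the reverse complement of GATAA at -78 to -74 and ATAAAA at -31 to -26. The HBM window held GATAA at -63 to -59, the reverse complement of CACCC at -49 to -45 and TATAA at -33 to -29. GATAA is the core that GATA factors bind, CACCC is the core that Kruppel-like factors such as KLF1 bind, CCAAT is bound by CCAAT-box factors, and TATAA and ATAAAA are forms of the TATA box. Of 35116 RefSeq promoters of the same length, 34.6% held CCAAT, 59.9% CACCC, 22.7% GATAA, 20.4% TATAA and 16.0% ATAAAA on either strand. A match is a run of letters and not a shown binding site.

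The values are log2 signals with a lower bound of 4, and the highest value on single arrays lay between 14.63 and 14.78. The 3 arrays of each group are not tied by the labels to separate cultures, so all p-values measure only the spread between these arrays. A log2 change between groups had a standard error of 0.14 for the median probe set. 1 array differed in its 18S ribosomal control probes, MMS1 miR-16 sponge replicate 1, at 7.84 against 9.56 to 11.1 on the other 11 arrays. Without it the MMS1 sponge changes of the globin probe sets moved by at most 0.15. The 3′ minus 5′ difference of the ACTB control probes was 0.235 to 0.485 on the MMS1 miR-16 sponge arrays and 0.082 to 0.209 on the MMS1 control arrays. For the GAPDH control probes the same difference went the other way, at -0.031 to 0.065 on the MMS1 miR-16 sponge arrays and 0.058 to 0.12 on the MMS1 control arrays. The part of RNA quality in the MMS1 results was not tested.

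The labelled cell type was checked against its markers. Of 14 plasma cell markers, 3 had a mean under 5: TNFRSF17 at 4.46 ± 0.26, JCHAIN at 4.20 ± 0.24 and CD38 at 4.91 ± 0.32 (SD, n = 12 arrays). Another 3 were over 8, namely SDC1, XBP1 and CD79A. POU2AF1 at 5.27, MZB1 at 5.49, CD27 at 5.71 and PRDM1 at 6.01 lay near the array medians of 5.80 to 5.90. IRF4, FKBP11, SLAMF7 and DERL3 had means of 6.47 to 7.16. Of 14 red cell precursor markers outside the globins, 0 were under 5 and 9 over 8. The transferrin receptor gene TFRC read 11.63 ± 0.68 and the master regulator gene GATA1 9.56 ± 0.20. The lowest were EPB42 at 5.12 ± 0.34, AHSP at 5.53 ± 0.24 and SLC4A1 at 5.99 ± 0.26, near the array medians of 5.80 to 5.90. The plasma cell markers were thus mixed in cells labelled multiple myeloma. By the same measure, 9 of 14 red cell precursor markers were over 8, against 3 of 14 plasma cell markers. The identity of the cells was not tested, so the label alone does not make the globin results those of plasma cells. The surface marker SDC1 was bright, and TNFRSF17, JCHAIN and CD38 were near the lower bound. POU2AF1, MZB1, CD27 and PRDM1 were no brighter than about the median probe set. The summed level of the red cell markers, as a mean over the list, was 7.89 to 8.05 on MMS1 miR-16 sponge arrays and 8.39 to 8.50 on MMS1 control arrays. In RPMI8226 it was 8.46 to 8.55 with the miR-16 sponge and 8.37 to 8.49 with the control sponge. The T cell list of 6 genes averaged 6.63 to 6.92 on MMS1 miR-16 sponge arrays and 5.58 to 5.78 on MMS1 control arrays, through CD3D, whose highest value was 12.58; the other 5 genes stayed between 4.14 and 6.44 on all arrays. The B cell list of 4 genes analysed averaged 6.19 to 6.28 and 5.98 to 6.01 on the same arrays, while the plasma cell, megakaryocyte and granulocyte lists overlapped between them. The part of these differences in the globin results was not tested. In bulk RNA, fewer cells of a type and less RNA per cell cannot be told apart.

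Across the family, the adult beta-like globins HBB and HBD were higher with the miR-16 sponge in both lines. The fetal HBG1/HBG2 pair, the embryonic HBZ and the adult alpha genes were lower in MMS1. In RPMI8226 their estimates were smaller in size, at 0.26 to 0.39 for HBG1/HBG2, the other direction. They were -0.01 for HBZ and -0.22 to -0.15 for HBA1/HBA2. In MMS1, 4 of 19 probe sets were called higher (HBB and HBD), against 4.2% of all probe sets, and 11 lower (HBG1/HBG2, HBA1/HBA2, HBZ and HBQ1), against 6.11%. A call is an adjusted p under 0.05 in limma over all 54613 probe sets. In RPMI8226, 4 of 19 were called higher (HBB and HBD), against 0.0238% of all, and 1 lower (HBE1), against 0.172%. Because the family was chosen by sponge changes, nothing is read from these counts. The median change of the 19 was -1.39 in MMS1 and 0.05 in RPMI8226, against -0.02 over all probe sets in each line. The probe sets are not independent, since 6 name HBA1/HBA2, 3 name HBG1/HBG2 and 4 name HBB. A total of 12 are of the x_at kind, whose probes can match related transcripts, so the members of the HBA and HBG pairs could not be told apart and some HBB signal may come from HBD.

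**Figure D1:**
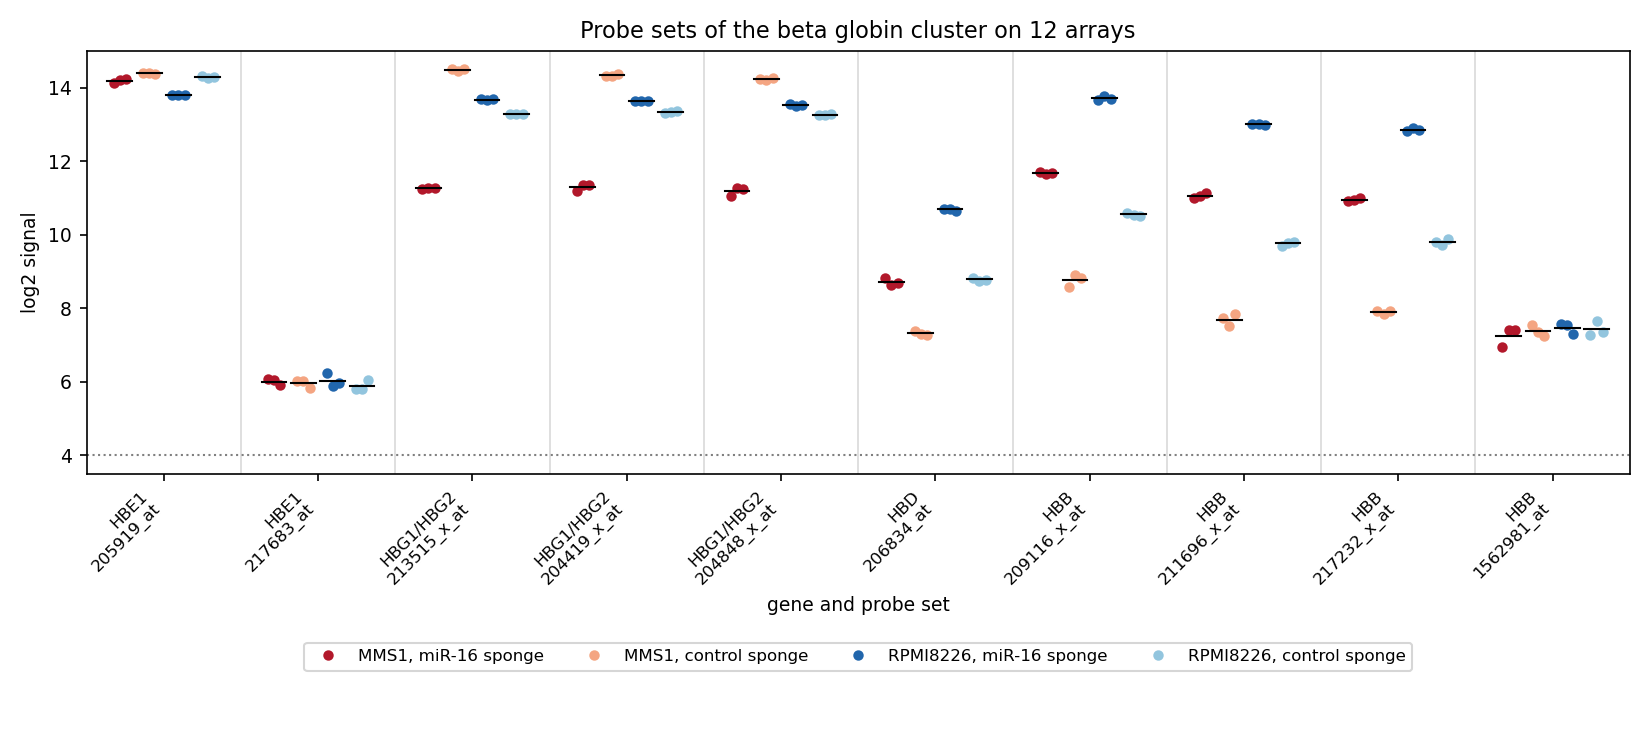
Log2 signal (y axis) of the 10 probe sets of the beta cluster (x axis) on 12 arrays. Points are arrays, short black lines are group means and the dotted line is the lower bound of 4. With the miR-16 sponge HBG1/HBG2 sits near 11 in MMS1 and above 13 in RPMI8226, while 3 of 4 HBB probe sets are higher than with the control sponge in both lines.

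HBE1, the embryonic epsilon chain, was among the brightest probe sets of every array. Its main probe set, 205919_at, read 14.13, 14.20 and 14.22 in MMS1 miR-16 sponge arrays, against 14.40, 14.39 and 14.38 in MMS1 control arrays. In RPMI8226 it read 13.80, 13.80 and 13.80 with the miR-16 sponge, against 14.30, 14.26 and 14.28 with the control sponge. The groups did not overlap in either line, and the lower values were those with the miR-16 sponge. The changes were -0.21 in MMS1 and -0.49 in RPMI8226. The RPMI8226 call of this probe set, counted above, was lost when any 1 of 11 arrays was left out. It was kept only without MMS1 miR-16 sponge replicate 1. That call is a description, since the HBE1 sponge changes were among the values that chose the family. The probe set lay 0.28 to 0.96 below the highest value of its array, close to the top of the scale, where differences can be compressed. The second HBE1 probe set, 217683_at, stayed between 5.79 and 6.24 on all 12 arrays, with overlapping groups and changes of 0.05 and 0.15.

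HBG1 and HBG2 encode the gamma chains of fetal haemoglobin, and their 3 shared probe sets gave the widest contrast between the lines in the family. The brightest, 213515_x_at, read 11.24, 11.27 and 11.27 in MMS1 miR-16 sponge arrays, against 14.50, 14.46 and 14.50 in MMS1 control arrays. The other HBG probe sets read 11.05 to 11.35 with the miR-16 sponge, against 14.21 to 14.38 with the control sponge in MMS1. In MMS1 all miR-16 sponge arrays thus lay far below all control arrays in 3 of 3 probe sets. Over all probe sets, 15.2% were lower without overlap in MMS1. The changes of -3.22 to -3.04 are 8.21-fold to 9.34-fold lower signals (limma, adjusted p = 8.34e-11 to 3.69e-10). At its closest 213515_x_at lay 0.18 below the highest value of its array, so the size of this change may be compressed. In RPMI8226, 213515_x_at read 13.69, 13.66 and 13.68 with the miR-16 sponge, against 13.29, 13.29 and 13.28 with the control sponge. Here the order was the other way, with every miR-16 sponge array above every control array in 3 of 3 probe sets. Over all probe sets, 7.27% were higher without overlap in RPMI8226, and the 3 probe sets are not independent, since they name the same genes. The RPMI8226 changes of 0.26 to 0.39 did not pass over all probe sets (limma, adjusted p = 0.0818 to 0.234). All 3 passed with a robust intensity trend in the variance (adjusted p = 5.57e-06 to 0.00505) and with values under 5 set to 5 (1.49e-05 to 0.0468). For 213515_x_at the RPMI8226 change also passed without MMS1 miR-16 sponge replicate 1 (adjusted p = 0.0374) and over brighter probe sets only (0.0151). The sponge change was higher in RPMI8226 than in MMS1 by 3.30 to 3.61 (limma's test of the difference, adjusted p = 2.56e-09 to 1.14e-08).

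HBD encodes the delta chain of the minor adult haemoglobin. Its only probe set, 206834_at, read 8.81, 8.64 and 8.68 in MMS1 miR-16 sponge arrays, against 7.38, 7.30 and 7.26 in MMS1 control arrays. In RPMI8226 it read 10.71, 10.70 and 10.65 with the miR-16 sponge, against 8.82, 8.75 and 8.77 with the control sponge. The groups did not overlap in either line, and all miR-16 sponge arrays were the higher ones. The changes were 1.39 in MMS1, or 2.62-fold, and 1.91 in RPMI8226, or 3.76-fold. HBD with the miR-16 sponge in MMS1 reached about the level of RPMI8226 with the control sponge.

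HBB encodes the adult beta chain. Its brightest probe set, 209116_x_at, read 11.69, 11.64 and 11.68 in MMS1 miR-16 sponge arrays, against 8.58, 8.89 and 8.82 in MMS1 control arrays. In RPMI8226 it read 13.67, 13.76 and 13.70 with the miR-16 sponge, against 10.60, 10.52 and 10.51 with the control sponge. All miR-16 sponge arrays were above all control arrays in both lines, and the same held for 211696_x_at and 217232_x_at. 211696_x_at read 10.99, 11.04 and 11.14 against 7.72, 7.51 and 7.85 in MMS1, and 13.02, 13.01 and 12.97 against 9.70, 9.76 and 9.81 in RPMI8226, miR-16 sponge against control sponge. 217232_x_at read 10.92, 10.94 and 10.99 against 7.91, 7.84 and 7.92 in MMS1, and 12.83, 12.89 and 12.85 against 9.81, 9.71 and 9.88 in RPMI8226, in the same order. Over the 3 x_at probe sets the change was 2.91 to 3.36 in MMS1, or 7.50-fold to 10.3-fold, and 3.06 to 3.25 in RPMI8226, or 8.31-fold to 9.49-fold. The difference between the lines was -0.12 to 0.26. The fourth HBB probe set, 1562981_at, read 6.95 to 7.64 over the 12 arrays, with overlapping groups and changes of -0.12 and 0.05. Probe sets of the same gene thus disagreed.

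**Figure D2:**
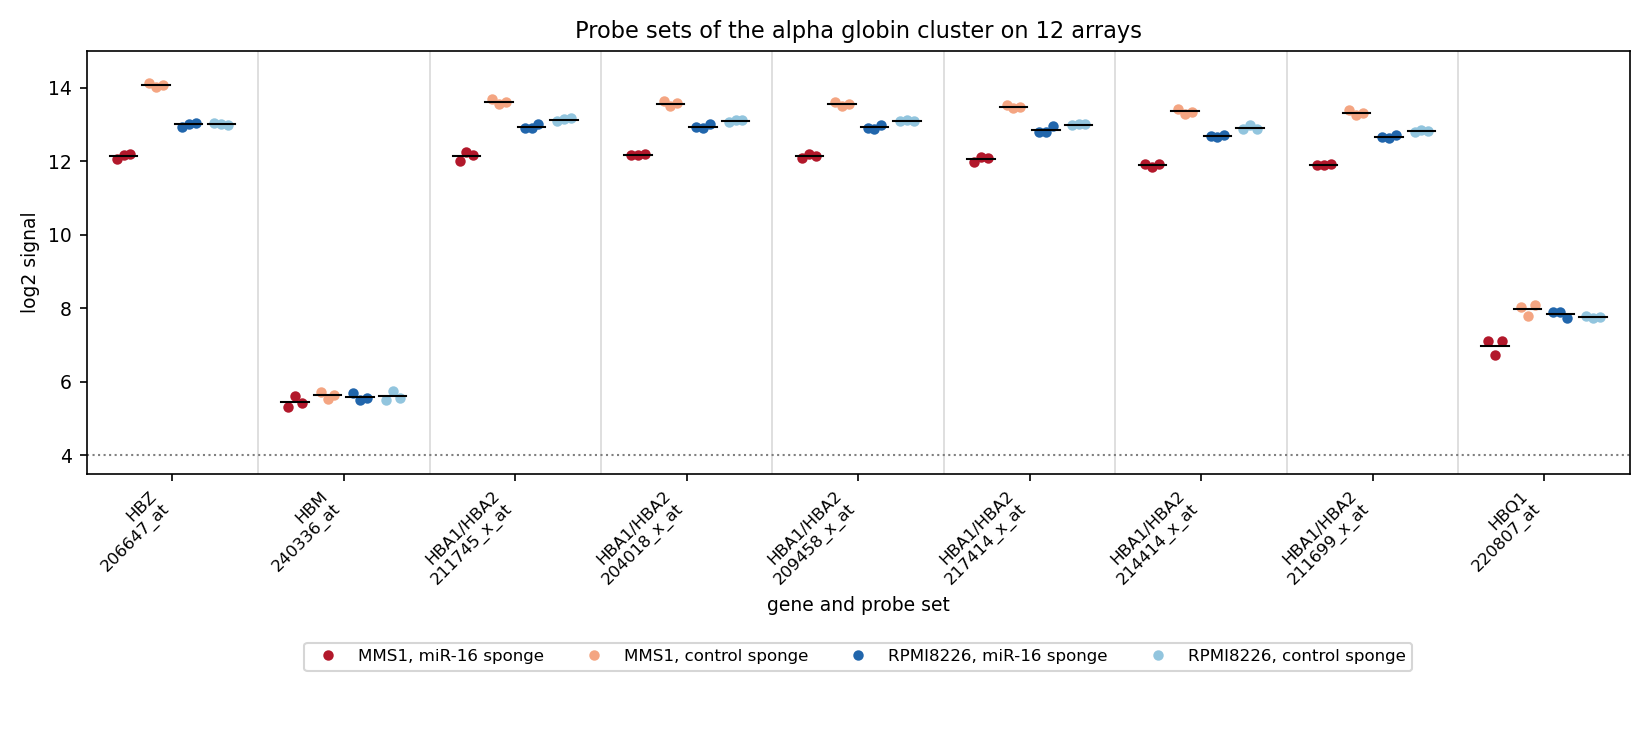
Log2 signal (y axis) of the 9 probe sets of the alpha cluster (x axis) on 12 arrays. Points are arrays, short black lines are group means and the dotted line is the lower bound of 4. MMS1 with the miR-16 sponge is the lowest group for HBZ, all 6 HBA1/HBA2 probe sets and HBQ1.

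HBZ encodes the embryonic zeta chain, the alpha-like partner of epsilon. Its probe set, 206647_at, read 12.05, 12.16 and 12.20 in MMS1 miR-16 sponge arrays, against 14.13, 14.02 and 14.07 in MMS1 control arrays. In RPMI8226 it read 12.94, 13.02 and 13.04 with the miR-16 sponge, against 13.03, 13.01 and 12.99 with the control sponge. The groups lay far apart in MMS1, with the miR-16 sponge low, and overlapped in RPMI8226. The changes were -1.94 in MMS1, or 3.83-fold lower, and -0.01 in RPMI8226, a difference of 1.92 between the lines.

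HBA1 and HBA2 encode the alpha chain of fetal and adult haemoglobin and share 6 probe sets. The brightest, 211745_x_at, read 11.99, 12.25 and 12.16 in MMS1 miR-16 sponge arrays, against 13.68, 13.56 and 13.60 in MMS1 control arrays. In RPMI8226 it read 12.91, 12.90 and 13.01 with the miR-16 sponge, against 13.09, 13.14 and 13.16 with the control sponge. The miR-16 sponge arrays were the lower ones in both lines, without overlap, and by more in MMS1. Over the 6 probe sets the MMS1 arrays read 11.85 to 12.25 with the miR-16 sponge and 13.25 to 13.68 with the control sponge. The MMS1 changes of -1.48 to -1.39 are 2.62-fold to 2.79-fold lower signals (limma, adjusted p = 2.82e-07 to 6.39e-07). In RPMI8226 the changes were -0.22 to -0.15 and did not pass (limma, adjusted p = 0.309 to 0.512). With a robust intensity trend in the variance, 214414_x_at and 209458_x_at passed (limma, adjusted p = 0.015 and 0.0301). With values under 5 set to 5, 214414_x_at passed (limma, adjusted p = 0.0402). Without overlap between the groups, RPMI8226 had 7 of 19 globin probe sets higher (3 HBB, 3 HBG1/HBG2 and HBD), against 7.27% of all, and 7 lower (6 HBA1/HBA2 and HBE1), against 14.6%. In MMS1, 4 of 19 were higher without overlap, against 11.6% of all, and 12 lower, against 15.2%. The HBA sponge change was higher in RPMI8226 than in MMS1 by 1.23 to 1.29 (limma's test of the difference, adjusted p = 6.61e-05 to 0.000124).

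HBQ1 encodes theta, an alpha-like chain with no settled function. Its probe set, 220807_at, read 7.11, 6.72 and 7.12 in MMS1 miR-16 sponge arrays, against 8.04, 7.78 and 8.09 in MMS1 control arrays. In RPMI8226 it read 7.89, 7.90 and 7.74 with the miR-16 sponge, against 7.80, 7.72 and 7.77 with the control sponge. The miR-16 sponge group was the low one in MMS1, without overlap, and the groups overlapped in RPMI8226. HBQ1 fell by 0.98 in MMS1 (limma, adjusted p = 0.000244), and its RPMI8226 change of 0.08 did not pass (limma, adjusted p = 0.833). The difference between the lines was 1.07 (limma, adjusted p = 0.00397). HBM encodes mu, another alpha-like chain. Its probe set, 240336_at, stayed between 5.30 and 5.74 on all 12 arrays. The HBM changes of -0.18 in MMS1 and -0.03 in RPMI8226 did not pass (limma, adjusted p = 0.399 and 0.945), with 95% confidence intervals of -0.43 to 0.07 and -0.28 to 0.22.

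**Figure D3:**
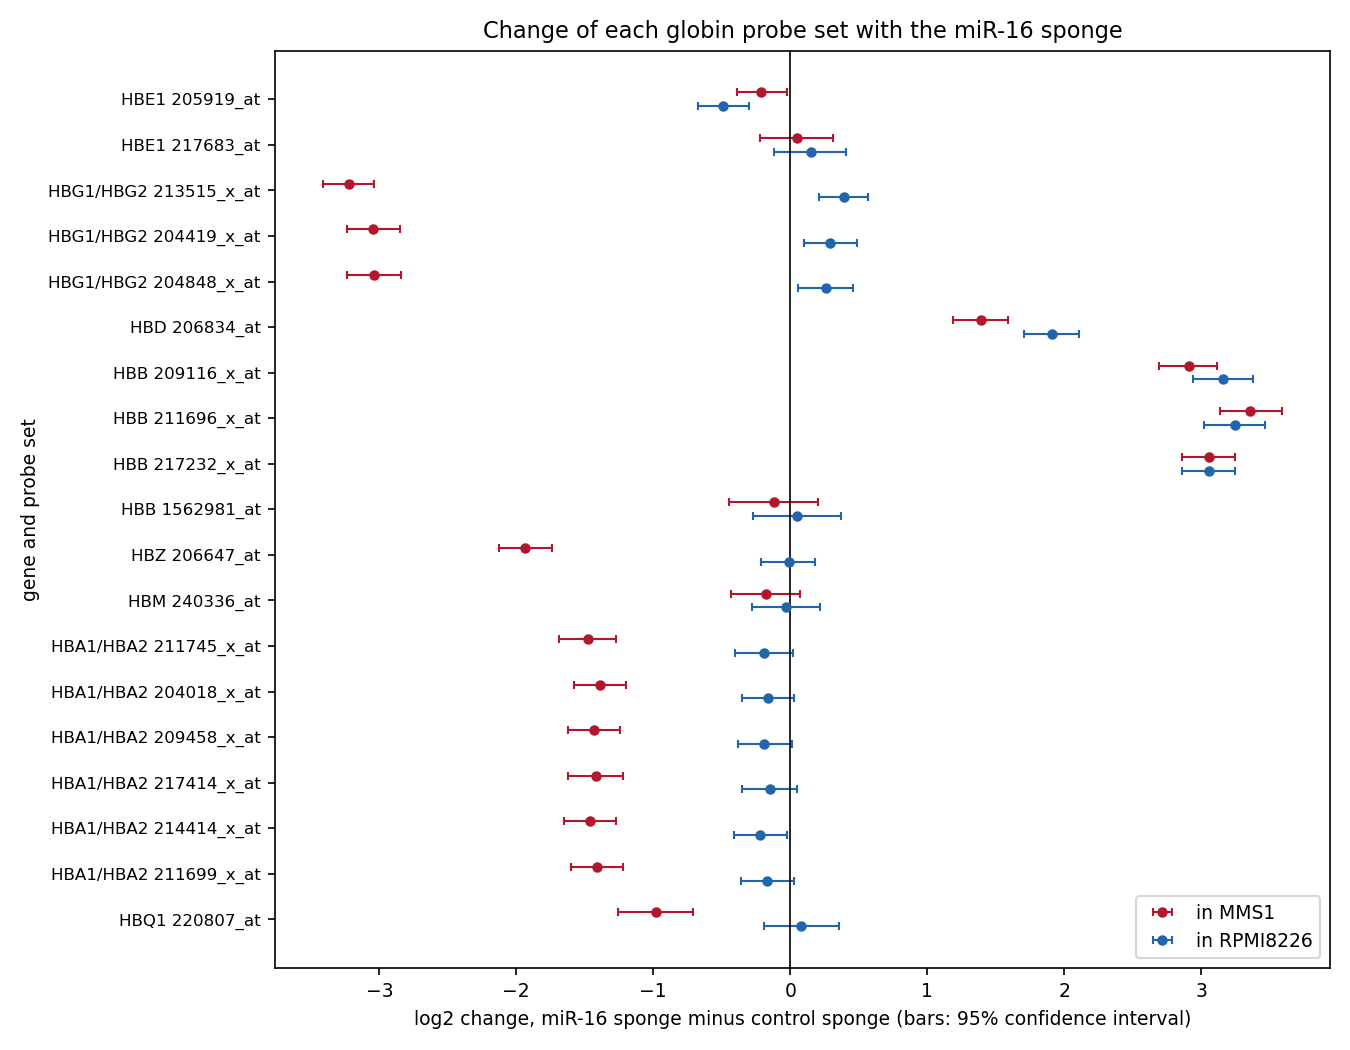
Log2 change with the miR-16 sponge (x axis, miR-16 sponge minus control sponge) of each of the 19 globin probe sets (y axis), in MMS1 and in RPMI8226. Points are estimates and bars are 95% confidence intervals from limma; in MMS1 HBG1/HBG2 lies at -3.22 to -3.04 and 3 HBB probe sets at 2.91 to 3.36, and in RPMI8226 these lie at 0.26 to 0.39 and 3.06 to 3.25.

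Set against each other over the family, the sponge change was higher in RPMI8226 than in MMS1 for 12 of 19 probe sets by limma's test of the difference, against 2.0% of all probe sets, and lower for 0, against 3.1%. These were the probe sets of HBG1/HBG2, HBA1/HBA2, HBZ, HBQ1 and HBD. At an unadjusted p under 0.05, 1 probe set (HBE1 205919_at) was lower, and the share of all probe sets at that threshold is not given. HBD, HBZ and HBE1 were among the genes whose sponge changes chose the family, so these counts are a description and nothing is read from them. The main HBE1 probe set had a difference of -0.28. The call for HBD, at a difference of 0.52, was lost when any 1 of the same 11 arrays was left out. The median difference of the 19 was 1.23, against 0.02 over all probe sets.

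The balance between adult, fetal and embryonic members was followed within each array, as the difference of 2 probe sets' log2 signals. Probes differ in brightness, so only the shift of such a difference between groups has a meaning. HBB minus HBG1/HBG2 was 0.41 ± 0.04 with the miR-16 sponge and -5.72 ± 0.18 with the control sponge in MMS1 (SD, n = 3 each). In RPMI8226 it was 0.03 ± 0.06 with the miR-16 sponge and -2.74 ± 0.04 with the control sponge. The balance moved toward the adult member by 6.13 in MMS1, a 70.0-fold change of the signal ratio, and by 2.77 in RPMI8226, a 6.82-fold change. The MMS1 value rests on HBG1/HBG2 control signals near the top of the scale, where differences can be compressed. In MMS1 the HBB and HBG1/HBG2 signals moved in opposite directions, while in RPMI8226 the HBB change was 3.06 to 3.25 in 3 probe sets and that of HBG1/HBG2, which did not pass, 0.26 to 0.39. HBD minus HBG1/HBG2 moved the same way, by 4.61 in MMS1 and 1.52 in RPMI8226. Against the embryonic HBE1, HBB moved up by 3.11 in MMS1 and 3.65 in RPMI8226, and against HBD by 1.52 and 1.25, so that the 2 adult members did not keep a fixed ratio. HBG1/HBG2 against HBE1 moved by -3.02 in MMS1 and 0.88 in RPMI8226.

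In the alpha cluster the same balance moved little. HBA1/HBA2 minus HBZ shifted by 0.46 in MMS1 and -0.18 in RPMI8226. Adult alpha and embryonic zeta signals were thus both lower in MMS1 with the miR-16 sponge, without the exchange seen between HBG1/HBG2 and HBB. Between the clusters, HBA1/HBA2 against HBB moved by -4.39 in MMS1 and -3.35 in RPMI8226.

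**Figure D4:**
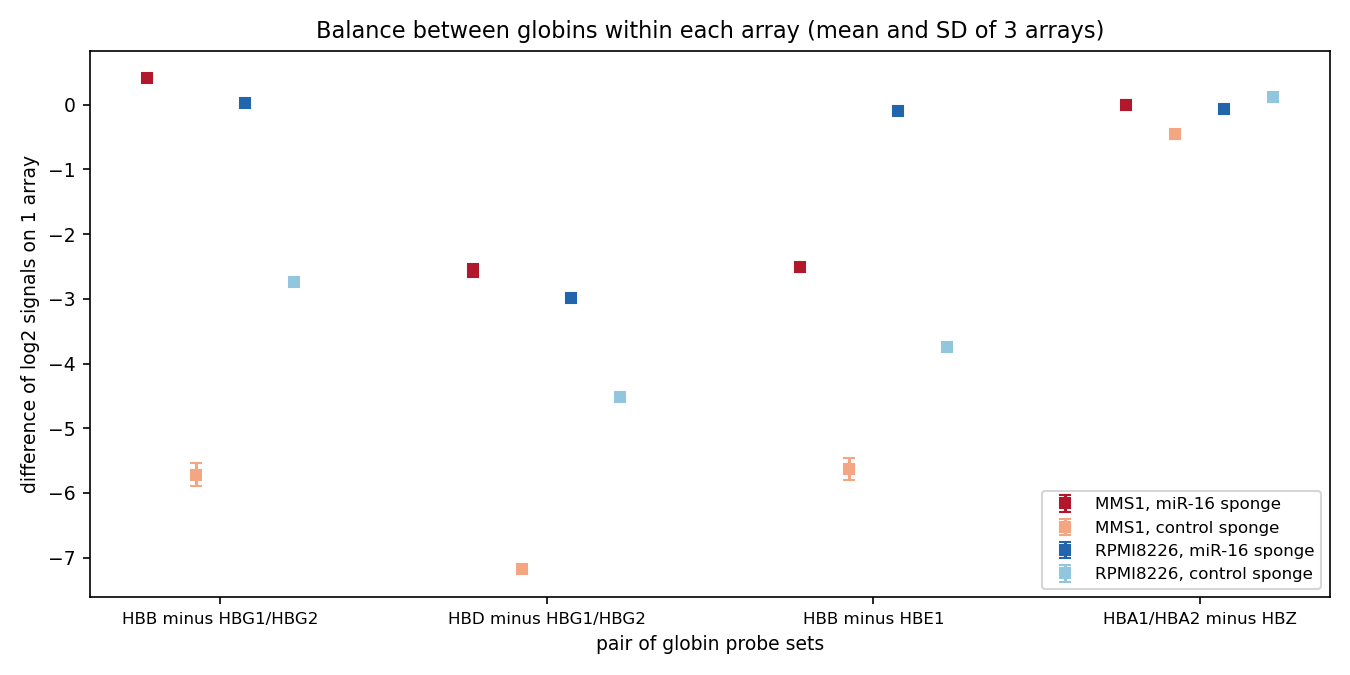
Difference of 2 globin probe sets' log2 signals on the same array (y axis), for 4 pairs (x axis), as mean and SD of 3 arrays a group; where no bar is seen the SD is smaller than the marker. Only the distance between groups within a pair can be read, since probes differ in brightness. HBB minus HBG1/HBG2 is higher with the miR-16 sponge by 6.13 in MMS1 and 2.77 in RPMI8226.

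The lines also differed in their globins with the control sponge alone. The control arrays are 1 arm of the sponge changes that chose the family, so this contrast is no separate evidence about them, and its values for HBB, HBD, HBE1 and HBZ rest in part on arrays already used. RPMI8226 minus MMS1 was called higher for 4 of 19 probe sets (3 HBB and HBD), against 5.45% of all, and lower for 10 (3 HBG1/HBG2, 6 HBA1/HBA2 and HBZ), against 2.73%. The 3 HBB x_at probe sets were 1.78 to 2.06 higher in RPMI8226 (limma, adjusted p = 2.98e-08 to 1.55e-07) and HBD was 1.46 higher (adjusted p = 3.98e-07). HBG1/HBG2 was lower in RPMI8226, at -1.20 to -0.97 (limma, adjusted p = 1.13e-06 to 2.23e-05), and so were HBZ at -1.06 (adjusted p = 7.64e-06) and HBA1/HBA2 at -0.49 to -0.45 (adjusted p = 0.00383 to 0.00794). With the control sponge, RPMI8226 thus had higher HBB and HBD signals and lower HBG1/HBG2, HBZ and HBA1/HBA2 signals than MMS1. HBE1 at -0.11 and HBQ1 at -0.20 did not pass (limma, adjusted p = 0.565 and 0.430). The median of the 19 was -0.45, against 0.03 over all probe sets.

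With the miR-16 sponge, RPMI8226 minus MMS1 was called higher for 15 of 19 probe sets, against 10.0% of all, and lower for 1, against 7.72%. HBB was still 1.90 to 2.04 higher in RPMI8226 in 3 probe sets (limma, adjusted p = 3.96e-08 to 1.4e-07) and HBD 1.98 higher (adjusted p = 3.32e-08). For HBG1/HBG2 the order of the lines was now the other way, with RPMI8226 2.33 to 2.41 higher (limma, adjusted p = 3.95e-09 to 9.72e-09). HBZ and HBQ1 were each 0.86 higher (adjusted p = 3.64e-05 and 0.000477), and HBA1/HBA2 0.76 to 0.81 higher (adjusted p = 5.98e-05 to 0.000119). HBE1 was the 1 probe set lower in RPMI8226, at -0.39 (limma, adjusted p = 0.00699, and 0.0555 when only the arrays compared were fitted). The median of the 19 was 0.81, against 0.05 over all probe sets. This comparison shares its arrays with the sponge comparisons and is no separate evidence about them.

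By mean signal of the main probe set, the 4 groups had these orders. For HBB and HBD the highest group was RPMI8226 with the miR-16 sponge and the lowest MMS1 with the control sponge, and for HBD the middle groups, MMS1 with the miR-16 sponge at 8.71 ± 0.09 and RPMI8226 with the control sponge at 8.78 ± 0.04 (SD, n = 3 each), overlapped. For HBG1/HBG2 and HBZ the highest group was MMS1 with the control sponge and the lowest MMS1 with the miR-16 sponge. For HBZ the RPMI8226 groups, at 13.00 ± 0.05 with the miR-16 sponge and 13.01 ± 0.02 with the control sponge, did not differ beyond their spread. For HBA1/HBA2 the highest group was again MMS1 with the control sponge and the lowest MMS1 with the miR-16 sponge. For HBQ1 MMS1 with the miR-16 sponge was lowest and the other groups overlapped. For HBE1 the lowest group was RPMI8226 with the miR-16 sponge.

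The known regulators of globin genes were read from a list of 35 genes, 33 of them analysed here. In MMS1, 2 of 33 were called higher with the miR-16 sponge, against 4.34% of all genes, and 11 lower, against 8.08%, with a median of -0.16 against -0.04 over all genes. KLF1, the Kruppel-like factor that activates HBB, had a mean signal of 7.98 ± 0.11 with the miR-16 sponge and 9.83 ± 0.13 with the control sponge in MMS1 (SD, n = 3 each). KLF1 fell by 1.85 (limma, adjusted p = 1.97e-07), and so did GFI1B, a repressor needed in red cell development, by 1.25 (7.85e-06) and LYL1, a basic helix-loop-helix factor, by 0.95 (0.000216). GATA1 gave -0.41 (limma, adjusted p = 0.0158), but its call was lost without MMS1 control sponge replicate 1 or 3 or miR-16 sponge replicate 3 (0.0557 to 0.0742). BCL11A, the repressor of the gamma globin genes, gave 0.10 and MYB, a factor linked to fetal haemoglobin levels, 0.16, neither past the test (limma, adjusted p = 0.679 and 0.443). The estimates of KLF1 and of 3 HBB probe sets had opposite signs in MMS1, and a link between the 2 genes was not tested.

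In RPMI8226, 0 of 33 regulators were called higher, against 0.0152% of all genes, and 0 lower, against 0.202%, with 0 higher and 9 lower at an unadjusted p under 0.05. Among the other settings tried, the count called lower reached 8. The share of all genes at the unadjusted threshold or in those settings is not given, so nothing is read from the 9 or the 8. BCL11A gave -0.22, MYB -0.36, GATA1 -0.33 and KLF1 -0.14 in RPMI8226, none past limma's test (adjusted p = 0.393, 0.175, 0.161 and 0.603). The KLF1 change differed between the lines by 1.70 (limma, adjusted p = 2.73e-05). Between control arrays, RPMI8226 minus MMS1 was called higher for 2 of 33 regulators, against 6.52% of all genes, and lower for 3, against 3.8%. HMGA2, a fetal-type chromatin protein gene, gave -2.65, lower in RPMI8226 (limma, adjusted p = 2.25e-08), GFI1B gave -0.58 (0.00478) and IGF2BP3, a fetal-type RNA binding protein gene, 0.63 (0.00342). BCL11A gave 0.21 there and did not pass (limma, adjusted p = 0.323).

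Genes of heme synthesis and haemoglobin assembly, 19 of 20 analysed here, were called higher for 3 in MMS1, against 4.34% of all genes, and lower for 7, against 8.08%, with a median of -0.08 against -0.04 over all genes. ALAS2, the first enzyme of heme synthesis in red cell precursors, had a mean of 7.39 ± 0.33 with the miR-16 sponge and 9.90 ± 0.08 with the control sponge (SD, n = 3 each) and fell by 2.51 (limma, adjusted p = 1.15e-07). UROD, a later enzyme of the pathway, fell by 0.65 (0.00147), and TFRC, which brings iron into the cell, rose by 0.67 (0.00125). The count called lower was 4 when only the MMS1 arrays were fitted. AHSP, the chaperone of free alpha chains, gave 0.27 in MMS1 and 0.10 in RPMI8226, neither past the test (limma, adjusted p = 0.265 and 0.811). In RPMI8226 0 of 19 passed either way by limma, with 1 higher and 0 lower at an unadjusted p under 0.05. The share of all genes at that unadjusted threshold is not given, and nothing is read from the unadjusted counts. The ALAS2 change differed between the lines by 2.80 (limma, adjusted p = 2.55e-06), the same direction as HBG1/HBG2 and HBA1/HBA2.

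The genes next to the clusters were read the same way. Of 11 genes beside the alpha cluster, 5 were called lower in MMS1 (limma), against 8.08% of all genes, and 0 higher, against 4.34%, with a median of -0.16 against -0.04 over all genes. SNRNP25, a component of the minor spliceosome, fell by 0.99 (adjusted p = 3.89e-05), MPG, a DNA repair glycosylase, by 0.86 (0.000863) and NPRL3, whose introns hold the alpha globin enhancers, by 0.51 (0.00376). These 3 also had a higher sponge change in RPMI8226 than in MMS1, by 0.87, 0.99 and 0.64 (limma, adjusted p = 0.00378, 0.00758 and 0.0161). Of 16 genes analysed beside the beta cluster, 3 were called higher in MMS1, against 4.34% of all genes, and 0 lower, against 8.08%, with a median of -0.09. TRIM5, an antiviral factor, gave 0.47 (limma, adjusted p = 0.0125), TRIM6, a ubiquitin ligase of the same family, 0.44 (0.0406) and OR51B4, an olfactory receptor gene, 0.41 (0.0464). Without single arrays the count beside the beta cluster was 1 to 3, and it was 0 when only the MMS1 arrays were fitted. In RPMI8226 limma called 0 neighbours of either cluster, with 1 higher and 2 lower beside the alpha cluster and 0 either way beside the beta cluster at an unadjusted p under 0.05. Of the 4 other globin-fold genes, MB, CYGB, NGB and ADGB, limma called 0 in any comparison. At an unadjusted p under 0.05, 1 was lower with the miR-16 sponge in MMS1. At the same threshold, 1 was higher in RPMI8226 than in MMS1 among miR-16 sponge arrays. For these unadjusted counts and those of the neighbours the share of all genes is not given, and nothing is read from them.

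**Figure D5:**
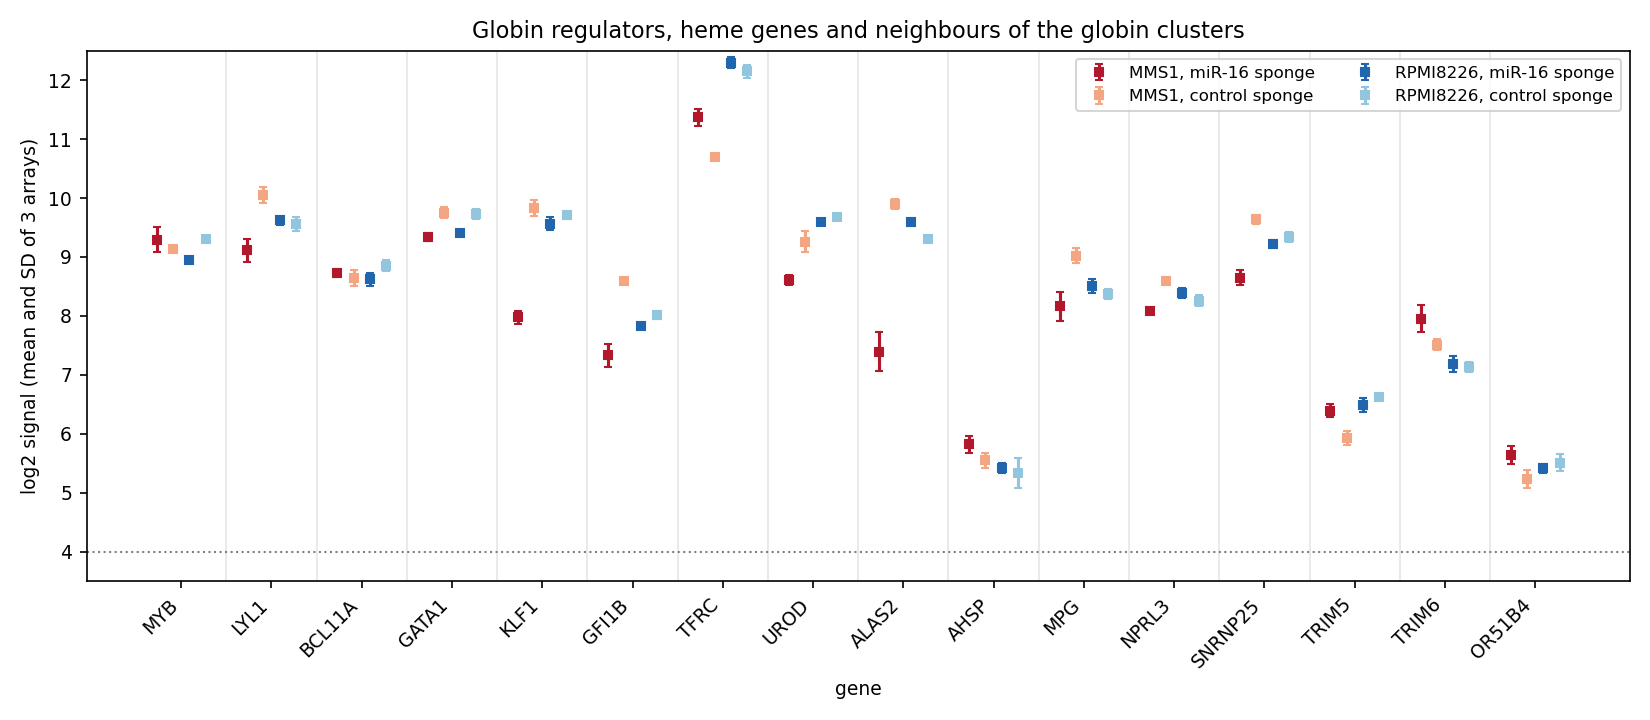
Log2 signal (y axis) of named regulators, heme genes and neighbours of the globin clusters (x axis), as mean and SD of 3 arrays a group; the dotted line is the lower bound of 4. In MMS1 the changes of KLF1, GFI1B and ALAS2 are -1.85, -1.25 and -2.51, and that of BCL11A is 0.10.

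Genes outside the family with a similar course over the 12 arrays were found by the root mean square difference of values centred on each gene's mean. For HBG1/HBG2 the closest was ALAS2, at 0.31 on the log2 scale, against a span of 3.22 in the group means of HBG1/HBG2. CHMP6 at 0.35 and KIR2DS5 at 0.36 came next. For HBA1/HBA2 the closest were ETS1 at 0.10, RMI2 at 0.12 and MRAP2 at 0.12, against a span of 1.48. For HBZ they were NPPC at 0.15, MRAP2 at 0.16 and TMEM190 at 0.16, against a span of 1.94. No gene came near the course of HBB, where the closest, SELENOP, differed by 1.09 and ZFP42 and FERMT2 by 1.11 and 1.14, against a span of 4.94. HBD was likewise apart, with DPPA5 at 0.60, OSBPL6 at 0.63 and SERPINF1 at 0.64, against a span of 3.37. HBE1, HBQ1 and HBM spanned 1 or less and were not searched.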

How the data were processed

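Per the labels' protocols, total RNA went through a 2-cycle labelling with biotin and was hybridised to Affymetrix arrays. The authors deposited 1 log2 signal per probe set and array; the values were used without further scaling, with array medians of 5.80 to 5.90. The authors' summarization and scaling are not given in the sources used here. Sample labels gave the groups. Of 54675 probe sets, 62 controls were left out. Symbols came from the platform annotation (41097 probe sets name 1 gene, 1801 several, 11777 none), updated through the RefSeq gene table, with 55 identifiers unmatched.

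In limma 3.58.1 (R 4.3.3), all 12 arrays entered a linear model of the 4 group means ( 8 residual and 4.92 prior degrees of freedom, prior variance 0.0273), which was tested on simulated data. Tests were two-sided, with Benjamini-Hochberg adjustment within each comparison. Tables and figures used matplotlib 3.10.9, pandas 2.3.3 and numpy 2.4.6 under Python 3.11.15. No 2 arrays held identical values.

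The members, lists and naming rule were chosen with earlier results of these data known. Every globin probe set was given. From 5 other lists, each gene by its brightest probe set naming it alone, up to 3 called members with the largest change per comparison were eligible to be named, plus AHSP, ALAS2, KLF1, GATA1, BCL11A and MYB. Some listed genes were not analysed here. Alternatives were quantile normalization, brighter probe sets only, a replicate block, a robust intensity trend, values under 5 set to 5, only the arrays compared, the mean over probe sets of the same globins, and leaving out each array.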

Additional observations from a re-analysis of the deposited data

Results flagged for a closer look

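Groups of 3 arrays are too small to search for single arrays that lie apart. The sponge change differed between the lines, RPMI8226 minus MMS1, by limma's test of the difference. For HBG1/HBG2 the differences were 3.61, 3.34 and 3.30 (213515_x_at, 204419_x_at and 204848_x_at). For HBA1/HBA2 they were 1.29, 1.23, 1.24, 1.27, 1.25 and 1.25 (211745_x_at, 204018_x_at, 209458_x_at, 217414_x_at, 214414_x_at and 211699_x_at). HBZ (206647_at) differed by 1.92 and HBQ1 (220807_at) by 1.07. HBD (206834_at) differed by 0.52, a call that was lost when any single one of 11 arrays was left out and with the replicate block. The HBZ and HBD differences are descriptions, since their sponge changes were among the values that chose the family.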

How the results depend on the processing

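The 95 changes of globin probe sets gave 1706 values under 19 alternatives, of which 1663 kept their direction and their side of the threshold or stayed within the replicate spread. Leaving out an array outside a comparison could not move its estimate. The replicate block, the robust intensity trend and the fit of only the arrays compared kept it too. For the sponge changes of HBB, HBD, HBE1 and HBZ only the estimate was judged, so the 1663 does not measure robustness. Counts of called probe sets, 15 and 5 for the sponge in MMS1 and RPMI8226, 12 for the difference, and 14 and 16 for RPMI8226 minus MMS1 in control and sponge arrays, were as follows. With the mean over probe sets of the same globins, which leaves 8 units, they were 6, 2, 5, 5 and 6 in that order. The RPMI8226 sponge count was 10 with a robust intensity trend (7 higher, 3 lower) and 9 with values under 5 set to 5 (7 higher, 2 lower). The cause was not tested. The share of all probe sets called under the alternatives is not given, so nothing is read from the counts under them. Leaving out single arrays gave 15 in MMS1, 4 to 6 in RPMI8226, 11 to 12 for the difference, 14 in control arrays and 16 in sponge arrays. Same-numbered arrays of different groups correlated at -0.075 to 0.058 in their deviations, and differently numbered ones at -0.064 to 0.093. These are deviations around means of 3 arrays, so the check cannot exclude that the numbers pair the arrays. With a replicate block the counts were 15, 4, 11, 14 and 16.

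Changes near 0 that never passed turned their sign. For HBE1 217683_at in sponge arrays (0.02) quantile normalization gave -0.05 and single arrays left out -0.08 to 0.10. For HBB 1562981_at in control arrays (0.04) they gave -0.02 and -0.07 to 0.12. HBM 240336_at gave -0.08 to 0.04 for the RPMI8226 sponge (-0.03) and -0.09 to 0.03 in control arrays (-0.02) without single arrays. Chosen after seeing the data, the same alternatives were run on the other named genes: without single arrays GATA1 gave -0.07 to 0.03 between control arrays (-0.02), and AHSP -0.05 to 0.20 for the RPMI8226 sponge (0.10). The HBE1 change in RPMI8226 (-0.49) was -0.17 as a mean over both probe sets, which averages in the flat one. HBM, at 5.30 to 5.74, stayed just below the array medians of 5.80 to 5.90, which limits what can be seen for it. The top of the arrays limits what can be seen for HBE1, HBG1/HBG2 and HBZ, which came within 0.28, 0.18 and 0.55 of the array maximum.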
